A study of Rattus norvegicus with 23 samples.

Results

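Ldha, the gene of the lactate dehydrogenase subunit that favours the turnover of pyruvate to lactate, was followed here together with 6 genes of glucose use and of the response to low oxygen. The set held 7 of the 32494 gene identifiers in the count tables: Ldha, Slc2a1, Hk2 and Gapdh for the uptake and breakdown of glucose, and Vegfa, Adm and Bnip3 as further genes known to respond to hypoxia. The glucose-use rows were ENSRNOG00000013009 (Ldha), ENSRNOG00000007284 (Slc2a1), ENSRNOG00000006116 (Hk2) and ENSRNOG00000018630 (Gapdh). The hypoxia rows were ENSRNOG00000019598 (Vegfa), ENSRNOG00000027030 (Adm) and ENSRNOG00000017243 (Bnip3), with all symbols given by the definition of the set. The deposited tables carry no symbols and the reference table at hand carries no Ensembl identifiers, so the names could not be checked against an annotation. The set was chosen by measured values of these same libraries: Ldha was taken up because it stood lower with sepiapterin at 12 and 24 hours, and the others were put beside it with earlier results known. Differences between sepiapterin and control aggregates are therefore given for these genes as descriptions, with no test.

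In glycolysis, glucose enters the cell through transporters such as GLUT1, is phosphorylated by hexokinases and is broken down to pyruvate, which lactate dehydrogenase turns into lactate while restoring NAD+. In brain tissue, astrocytes are known for a strong glycolytic flow and for the release of lactate. When oxygen is low, hypoxia-inducible factors (HIF) escape degradation and raise the transcription of many of these genes, together with those of secreted factors such as VEGF-A and adrenomedullin.

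Brain cells of Sprague Dawley rats, taken at embryonic day 15, had been grown as 3D aggregates for 14 days. Groups were aggregates given 120 ng/ml sepiapterin, a precursor that cells convert to tetrahydrobiopterin, and controls given phosphate-buffered saline, each at 6, 12 and 24 hours (T6, T12 and T24), with further controls at 0 hours (T0). Each of these 7 groups had 3 libraries, and 2 T12 control samples (10 and 11) had a repeat library, which makes 23 libraries of polyadenylated RNA. The labels do not say whether replicates came from separate cultures. The spread on which the p-values rest is that between these libraries and may be technical.

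Reads in genes numbered 16991417 to 26588314 per library. Reads with several alignments, which were not counted, made up 23.5 to 25.0% of the alignments tallied. No pair of libraries in a group agreed within counting noise, the mean squared difference per gene being at least 2.03 times that expected from counting. By label the T6 and T12 libraries were made in a first batch and T24 with the T12 repeats in a second, so that sepiapterin and controls of one time share a batch. No batch is stated for T0. For samples 10 and 11 the titles and the column headers of the tables disagree on which library is the repeat. Values that involve T12 controls are therefore given by title. Where the call or size depends on it, the value by header is given, or a range that includes it. The library farthest from its group was T0 control replicate 1, at 19.9 and 26.1 times the difference expected from counting against the other T0 libraries, and the tests with T0 were also run without it.

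The promoter windows show which of the genes carry, near the start of transcription, the short core sequence that HIF is known to bind. Promoter sequences of all 7 symbols were found in the RefSeq table for the rat assembly GRCr8, while the counts were made on Rnor_6.0. Each window runs from 250 bases before to 50 bases after the start of transcription. The core was searched as ACGTG and GCGTG on both strands, where ACGTG inside the palindrome CACGTG counts on both. The 3 sequences below are those of Ldha, of Bnip3, the only other member with a CACGTG there, and of Slc2a1, which holds core matches but no CACGTG. They are written 5′ to 3′ on the strand of the gene, and capitals mark the core matches.
Ldha, chr1:106507842-106508141, plus strand: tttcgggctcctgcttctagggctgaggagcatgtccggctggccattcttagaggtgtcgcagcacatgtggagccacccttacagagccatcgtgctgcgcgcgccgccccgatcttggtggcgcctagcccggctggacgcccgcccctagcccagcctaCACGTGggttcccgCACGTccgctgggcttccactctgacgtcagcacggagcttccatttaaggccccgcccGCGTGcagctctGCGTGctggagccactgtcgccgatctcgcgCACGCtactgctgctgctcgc
Bnip3, chr1:203154913-203155212, minus strand: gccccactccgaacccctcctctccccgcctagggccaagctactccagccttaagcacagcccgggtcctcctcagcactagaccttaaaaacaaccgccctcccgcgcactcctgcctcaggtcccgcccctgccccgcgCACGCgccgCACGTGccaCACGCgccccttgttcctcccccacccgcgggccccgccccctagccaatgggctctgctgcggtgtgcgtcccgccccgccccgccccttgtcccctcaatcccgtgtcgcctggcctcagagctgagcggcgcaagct
Slc2a1, chr5:138002272-138002571, plus strand: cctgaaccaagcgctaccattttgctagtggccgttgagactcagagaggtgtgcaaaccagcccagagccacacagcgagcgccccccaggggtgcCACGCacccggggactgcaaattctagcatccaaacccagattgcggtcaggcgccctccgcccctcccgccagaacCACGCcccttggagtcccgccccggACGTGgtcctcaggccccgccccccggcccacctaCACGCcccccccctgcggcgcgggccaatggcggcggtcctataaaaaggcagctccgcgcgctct

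The Ldha window held 6 core matches, 3 of ACGTG and 3 of GCGTG, with a CACGTG beginning 87 bases before the start of transcription. Bnip3 held 4, with a CACGTG beginning 99 bases before the start. Slc2a1 held 4 and Gapdh 3, with no CACGTG in either. The windows of Hk2 and Adm and both windows of Vegfa held 0. Sequence outside the windows was not searched, so these genes may carry the core elsewhere. Of 33469 windows of this length in the table, 41.6% held ACGTG or GCGTG on either strand and 6.42% held CACGTG. A match says only that the letters are there, and the windows of Ldha, Bnip3 and Slc2a1 are also rich in G and C, at 66.7%, 71.3% and 68.3% against a median of 51.7% over the table.

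**Figure D1:**
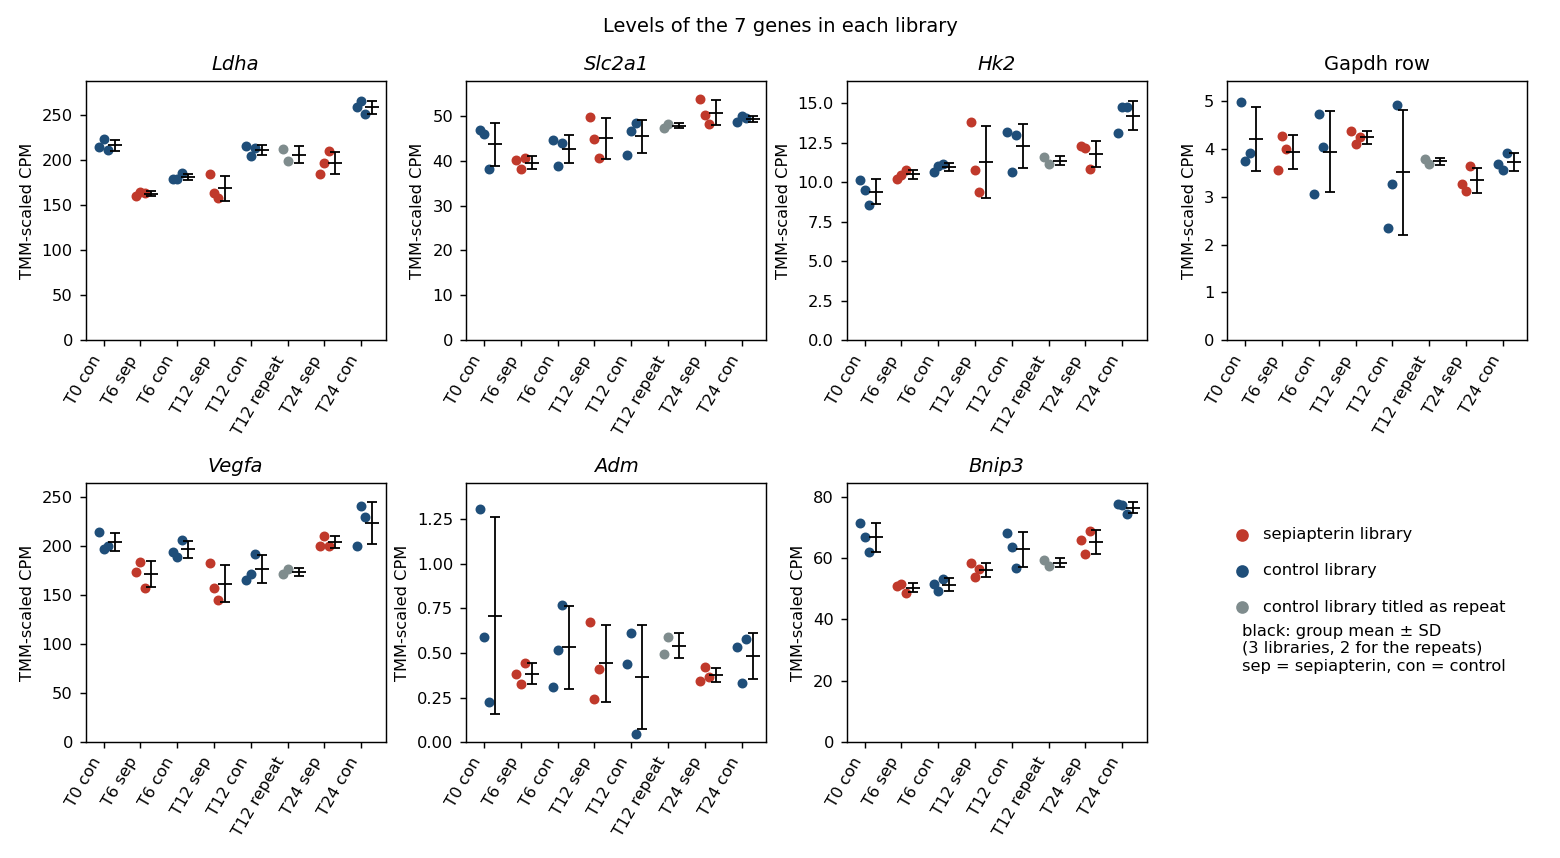
Levels of the 7 genes in each library as CPM (gene reads of each library brought to a common total) scaled by the TMM method, by time and treatment, with 1 point per library and the group mean ± SD in black (3 libraries, 2 for the repeats). Ldha lies at 158 to 209.5 CPM in sepiapterin libraries and at 179 to 266 CPM in the T6 to T24 control libraries, while Adm and the row given as Gapdh lie below 5 CPM.

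Ldha had 3217 to 4845 reads per library. At T6 it stood at 159.6, 164 and 164 CPM with sepiapterin, against 179.6, 179 and 185 CPM in controls. At T12 it stood at 184, 164 and 158 CPM with sepiapterin, against 215, 205 and 214 CPM in controls. The 3 sepiapterin libraries lay below all 3 controls at both times, as in 5.22% of all genes at T6 and 11.4% at T12, and the T12 sepiapterin libraries were spread more widely than those at T6. At T24 it stood at 184, 196 and 209.5 CPM with sepiapterin, against 259, 266 and 251 CPM in controls, again with no overlap, as in 11.8% of all genes. Sepiapterin replicate 3 was the library nearest to the controls there.

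The log2 fold change of Ldha with sepiapterin was -0.15 ± 0.05 (SE) at T6, -0.32 ± 0.05 at T12 and -0.39 ± 0.05 at T24. At these times 7.33%, 3.14% and 2.06% of the 14035 genes tested had a lower log2 fold change, and the median over all genes was within 0.01 of 0. The log2 fold change at T24 differed from that at T6 by -0.24 ± 0.07 and from that at T12 by -0.07 ± 0.07. With T12 controls taken by file header the difference at T12 was -0.30, and with both libraries of samples 10 and 11 summed it was -0.31. In bulk RNA, fewer cells of a type and less RNA per cell cannot be told apart in these values.

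The glucose transporter and hexokinase genes had log2 fold changes smaller in size than that of Ldha at each time. Ldha was itself taken up for its low values at T12 and T24, so this order is no separate result. At T24 the 95% interval of Hk2, from -0.51 to -0.04, held the Ldha value of -0.39. Slc2a1, which encodes GLUT1, stood at 40.0, 38.0 and 40.6 CPM with sepiapterin at T6, against 44.6, 38.9 and 44.0 CPM in controls. At T24 it stood at 53.6, 50.2 and 48.1 CPM with sepiapterin, against 48.5, 49.9 and 49.5 CPM in controls. Its groups overlapped at all 3 times, with log2 fold changes of -0.10 ± 0.08 at T6, -0.01 ± 0.08 at T12 and 0.04 ± 0.08 at T24. The 95% interval at T24 ran from -0.13 to 0.20.

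Hk2, the gene of hexokinase 2, which traps glucose in the cell by phosphorylation, had 191 to 328 reads per library. At T12 it stood at 13.8, 10.8 and 9.35 CPM with sepiapterin, against 13.2, 10.7 and 13.0 CPM in controls. At T24 it stood at 12.3, 12.2 and 10.8 CPM with sepiapterin, against 13.1, 14.8 and 14.7 CPM in controls. The groups overlapped at T12 and did not at T24, as in 11.8% of all genes with sepiapterin below controls. The log2 fold change was -0.06 ± 0.11 at T6, -0.12 ± 0.11 at T12 and -0.27 ± 0.11 at T24.

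Among the further hypoxia genes, Bnip3, a receptor on the outer mitochondrial membrane that takes part in mitophagy and cell death, had its largest difference with sepiapterin at T24. It stood at 65.8, 61.2 and 68.9 CPM with sepiapterin at T24, against 77.6, 77.4 and 74.2 CPM in controls. The groups did not overlap, as in 11.8% of all genes with sepiapterin below controls, and the log2 fold change was -0.23 ± 0.06. At T6 the sepiapterin libraries had 50.9, 51.7 and 48.6 CPM, against 51.6, 49.1 and 53.2 CPM in controls, a log2 fold change of -0.02 ± 0.06. At T12 they had 58.2, 53.8 and 56.5 CPM, against 68.2, 63.7 and 56.7 CPM in controls. The T12 value depended on which libraries are the repeats, at -0.16 ± 0.06 by title and -0.04 by file header. By title the log2 fold change at T24 differed from that at T12 by -0.07 ± 0.09. In the alternatives that left no library out, file header included, this difference ran from -0.191 to -0.0641, so its size depends on the labels.

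Vegfa, the gene of the growth factor that drives the sprouting of blood vessels, stood at 174, 183 and 157 CPM with sepiapterin at T6, against 194, 189 and 206 CPM in controls. These groups did not overlap, as in 5.22% of all genes with sepiapterin below controls, and the log2 fold change was -0.19 ± 0.08. At T12 it stood at 182, 157 and 145 CPM with sepiapterin, against 165, 172 and 192 CPM in controls. At T24 it stood at 200.1, 210.4 and 200.2 CPM with sepiapterin, against 199.7, 240.1 and 229.8 CPM in controls. The groups overlapped at both later times, with log2 fold changes of -0.12 ± 0.08 and -0.13 ± 0.08.

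The remaining rows carried too few reads for a close comparison. Adm, the gene of the vasodilating peptide adrenomedullin, had 1 to 29 reads per library. Its log2 fold changes with sepiapterin had standard errors of 0.56 to 0.64, so differences of the size seen in Ldha were not detectable at this depth. Gapdh encodes a glycolytic enzyme and is known as one of the most abundant transcripts of most cells. The row given as Gapdh nevertheless had only 48 to 128 reads per library, or 2.34 to 4.97 CPM. The RefSeq table names 81 Gapdh pseudogenes, and reads with several alignments were not counted. The part of such uncounted reads in the low level was not tested. This row therefore goes against its name as a measure of Gapdh and is called the Gapdh row here. It overlapped between sepiapterin and control aggregates at all 3 times, with a log2 fold change of -0.15 ± 0.21 at T24. The same table names 30 Ldha and 8 Bnip3 pseudogenes, so these genes too are measured only through uniquely placed reads.

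**Figure D2:**
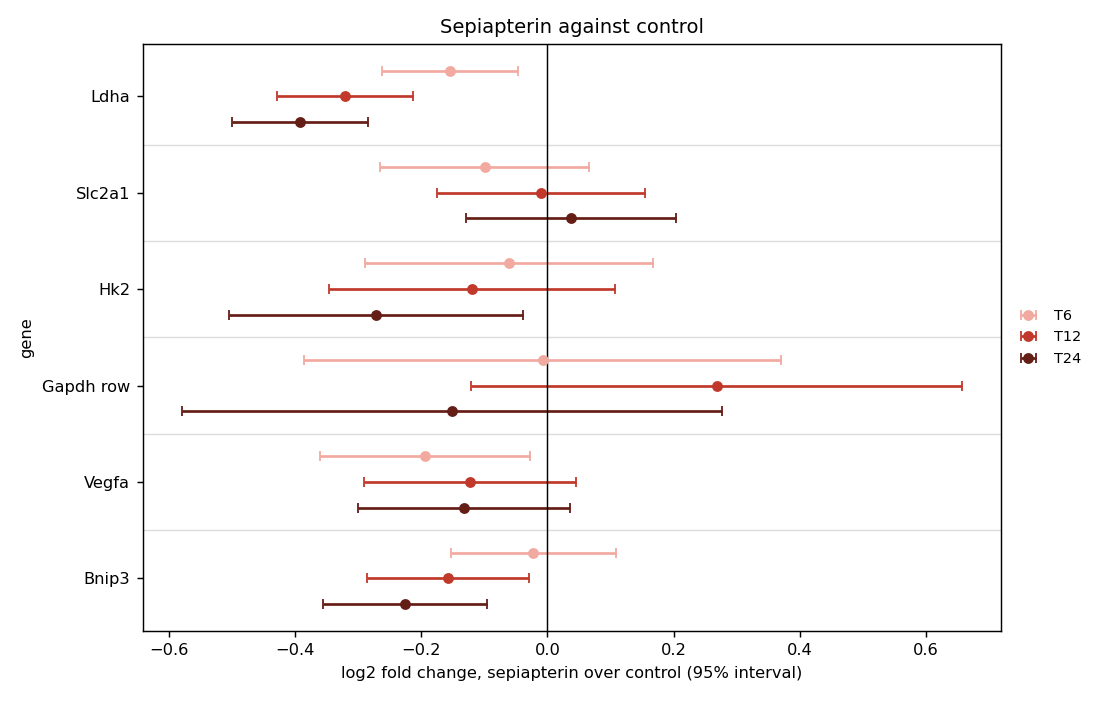
Log2 fold change of sepiapterin over control aggregates at T6, T12 and T24 for 6 of the genes, as points with 95% intervals from the edgeR fit (3 libraries per group). Adm is left out because its intervals are several times wider. Ldha lies below 0 at each time, at -0.15, -0.32 and -0.39, while Slc2a1 lies between -0.10 and 0.04.

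The median log2 fold change of the 7 genes with sepiapterin was -0.10 at T6, -0.12 at T12 and -0.23 at T24. It counts Adm and the Gapdh row, and Ldha was chosen for its low values at T12 and T24, so it is no separate result. Leaving out single libraries, Ldha lay between -0.16 and -0.14 at T6, between -0.39 and -0.28 at T12 and between -0.44 and -0.35 at T24. At T24 it was lowest without sepiapterin replicate 3 and nearest to 0 without sepiapterin replicate 1. Adm had log2 fold changes of -0.46 ± 0.56, 0.31 ± 0.60 and -0.36 ± 0.64 at the 3 times, and the Gapdh row had -0.01 ± 0.18 at T6 and 0.27 ± 0.19 at T12. At T12 the alternatives that left no library out, file header included, gave 0.0356 to 0.291 for the Gapdh row. They gave -0.0907 to -0.00656 for Slc2a1.

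Within the T12 sepiapterin group, replicate 1 had the highest level of all 7 genes. It had 184 CPM of Ldha, against 164 and 158 CPM in the other two, and 13.8 CPM of Hk2, against 10.8 and 9.35 CPM. The Gapdh row varied there by 3.20%, less than the 9.87% that counting alone gives, so its order means little. The coefficient of variation of Ldha was 8.24% in this group and 6.40% in sepiapterin libraries at T24. It lay between 1.60 and 2.88% in the other groups of 3, where counting alone gives 1.46 to 1.62%.

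A test was made for T6 against T0 in controls. This difference is not one of those at T12 and T24 for which Ldha was taken up. The other genes were put beside Ldha with earlier results of these libraries known, so their p-values are not free of that choice. The spread was estimated from all 21 libraries of the fit, those at T12 and T24 among them. A gene was called where edgeR's quasi-likelihood test gave a Benjamini-Hochberg adjusted p below 0.05 over all genes tested. Both Ldha and Bnip3 fell. Ldha stood at 179.6, 179 and 185 CPM at T6, against 215, 223 and 211 CPM at T0, a log2 fold change of -0.25 ± 0.05 (edgeR, adjusted p 0.0014). Bnip3 stood at 51.6, 49.1 and 53.2 CPM at T6, against 71.3, 66.9 and 61.9 CPM at T0, a log2 fold change of -0.37 ± 0.06 (edgeR, adjusted p 0.00017). In both genes every T6 library lay below every T0 library, as in 17.6% of all genes. These were 2 of the 7 genes, where 21.6% of all genes were called and 10.7% called lower, and both kept their calls in all 12 alternatives with a test, among them the fit without T0 control replicate 1. Because no batch is stated for T0, time and library batch cannot be told apart in this comparison.

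Hk2 differed in the other direction over the same hours without passing the test. It stood at 10.7, 11.0 and 11.2 CPM at T6, against 10.2, 9.50 and 8.57 CPM at T0, a log2 fold change of 0.23 ± 0.11 (edgeR, adjusted p 0.16). The groups did not overlap, as in 18.3% of all genes with T6 above T0. Slc2a1 and Vegfa had log2 fold changes of -0.03 ± 0.08 and -0.05 ± 0.08, the Gapdh row -0.08 ± 0.18 and Adm -0.41 ± 0.50, with overlapping groups and no call.

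The later control times enter the differences by which Ldha was chosen, so T12 against T6 and T24 against T12 are given as descriptions, with no test. Ldha stood at 215, 205 and 214 CPM in controls at T12, against 179.6, 179 and 185 CPM at T6, a log2 fold change of 0.21 ± 0.05. Bnip3 stood at 68.2, 63.7 and 56.7 CPM at T12, against 51.6, 49.1 and 53.2 CPM at T6, a log2 fold change of 0.29 ± 0.06. Every T12 library lay above every T6 library in both genes, as in 15.6% of all genes. By file header the log2 fold changes were 0.19 for Ldha and 0.17 for Bnip3, and with the libraries of samples 10 and 11 summed they were 0.21 and 0.23. By title the groups of the other 5 genes overlapped, with 0.16 ± 0.11 for Hk2, 0.09 ± 0.08 for Slc2a1, -0.16 ± 0.08 for Vegfa, -0.17 ± 0.19 for the Gapdh row and -0.57 ± 0.58 for Adm. In the alternatives that left no library out, file header included, Slc2a1 ran from 0.0721 to 0.17. The Gapdh row ran there from -0.195 to 0.0554. By file header the T12 libraries had 47.3, 48.2 and 48.4 CPM of Slc2a1, above every T6 library, so its overlap depends on the labels.

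With sepiapterin Ldha stood at 184, 164 and 158 CPM at T12, against 159.6, 164 and 164 CPM at T6, a log2 fold change of 0.05 ± 0.05 with overlapping groups. Bnip3 stood at 58.2, 53.8 and 56.5 CPM at T12, against 50.9, 51.7 and 48.6 CPM at T6, a log2 fold change of 0.15 ± 0.06 with no overlap, as in 15.6% of all genes. The other groups overlapped, with 0.18 ± 0.08 for Slc2a1, 0.10 ± 0.11 for Hk2, -0.09 ± 0.08 for Vegfa, 0.10 ± 0.18 for the Gapdh row and 0.20 ± 0.58 for Adm. The log2 change of Ldha between these times with sepiapterin differed from that in controls by -0.17 ± 0.07, which is the same difference as between the sepiapterin effects at T12 and T6.

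T24 and T12 controls were compared within the second library batch, with the 2 libraries titled as repeats standing for T12. Ldha stood at 259, 266 and 251 CPM at T24, against 212 and 199 CPM in the T12 repeats, a log2 fold change of 0.33 ± 0.06. Bnip3 stood at 77.6, 77.4 and 74.2 CPM at T24, against 59.5 and 57.5 CPM in the repeats, a log2 fold change of 0.38 ± 0.06. Vegfa stood at 199.7, 240.1 and 229.8 CPM at T24, against 171 and 176 CPM in the repeats, a log2 fold change of 0.36 ± 0.07. In these 3 genes every T24 library lay above both repeats, as in 21.2% of all genes. The same held for Hk2, with 13.1, 14.8 and 14.7 CPM at T24 against 11.6 and 11.2 CPM in the repeats (0.32 ± 0.10), and for Slc2a1, with a log2 fold change of 0.04 ± 0.06. The Gapdh row, at -0.01 ± 0.16, and Adm, at -0.17 ± 0.40, overlapped. By file header the log2 fold changes were 0.30 for Ldha, 0.41 for Vegfa and 0.22 for Bnip3. The repeats by header had 13.18 and 10.68 CPM of Hk2, which overlaps T24, where the lowest library had 13.14 CPM. They had 2.34 and 3.27 CPM of the Gapdh row, below every T24 library. Whether these 2 rows overlap thus depends on the labels. In the alternatives that left no library out, file header included, Hk2 ran from 0.253 to 0.323. In the alternatives that left no library out, file header included, Slc2a1 ran from 0.0171 to 0.172. The Gapdh row ran from -0.0365 to 0.416, so the size in both rows depends on the processing and labels.

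**Figure D3:**
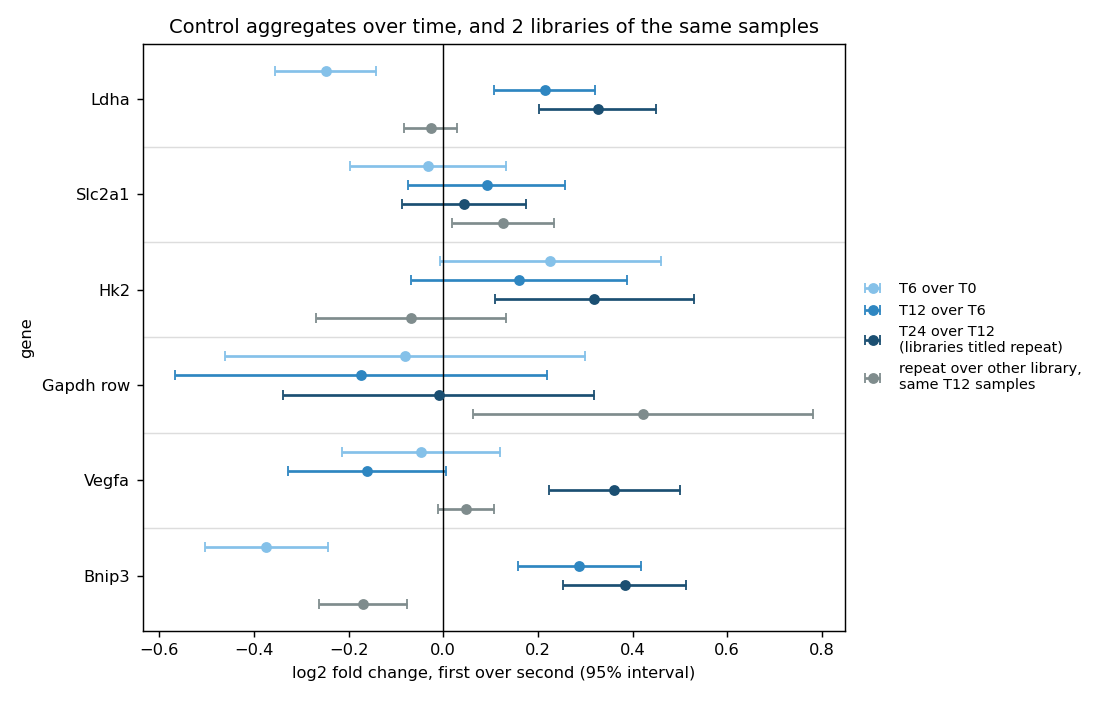
Log2 fold changes in control aggregates between successive times, and between the 2 libraries of the same T12 control samples, as points with 95% intervals from edgeR. Ldha and Bnip3 lie below 0 for T6 over T0, at -0.25 and -0.37, and above 0 for T12 over T6 and T24 over T12. Between 2 libraries of the same samples Ldha lies at -0.03 and Bnip3 at -0.17. Adm is left out because its intervals are several times wider.

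The repeat libraries show how far a gene can move with no change of sample. Between the library titled as repeat and the other library of samples 10 and 11, with sample as a block, 18.7% of all genes were called by edgeR and 9.85% called lower. Of the 7 genes 1 was called, Bnip3, which stood at 59.5 and 57.5 CPM in the repeats against 68.2 and 63.7 CPM in the other libraries (log2 fold change -0.17 ± 0.05, edgeR, adjusted p 0.0039). DESeq2 called 277 genes and 0 of the 7, and without the block edgeR called 0 of the 7. The other libraries are among the T12 controls by which Ldha was chosen, so these p-values are not free of that choice. Ldha stood at 212 and 199 CPM against 215 and 205 CPM, a log2 fold change of -0.03 ± 0.03 with a 95% interval from -0.08 to 0.03. Vegfa differed by 0.05 ± 0.03, Slc2a1 by 0.13 ± 0.05, the Gapdh row by 0.42 ± 0.18, Hk2 by -0.07 ± 0.10 and Adm by 0.05 ± 0.44. With sepiapterin at T12 the log2 fold change was -0.16 for Bnip3 and -0.32 for Ldha. The repeats cross library batches by label, whereas sepiapterin and controls at T12 share a batch. The repeat fit also has only 1 residual degree of freedom, so it does not measure the noise of the difference at T12.

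Taken by level, the 7 groups of Ldha ran from T24 controls at 258 ± 7.43 CPM (SD, n = 3, as for all means here) through T0 controls at 216 ± 6.10 and T12 controls at 211 ± 5.79 CPM. Below these came sepiapterin at T24 with 197 ± 12.6, T6 controls with 181 ± 3.61, sepiapterin at T12 with 169 ± 13.9 and sepiapterin at T6 with 163 ± 2.60 CPM. T24 controls lay apart from the next group, and every other pair of neighbours in this order overlapped. Bnip3 had T24 controls first as well, at 76.4 ± 1.88 CPM, and sepiapterin and controls at T6 last, at 50.4 ± 1.56 and 51.3 ± 2.05 CPM. Hk2 had its highest mean in T24 controls, at 14.2 ± 0.93 CPM, and its lowest in T0 controls, at 9.41 ± 0.80 CPM. Slc2a1 ranged only from 50.6 ± 2.81 CPM with sepiapterin at T24 to 39.6 ± 1.36 CPM with sepiapterin at T6.

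**Figure D4:**
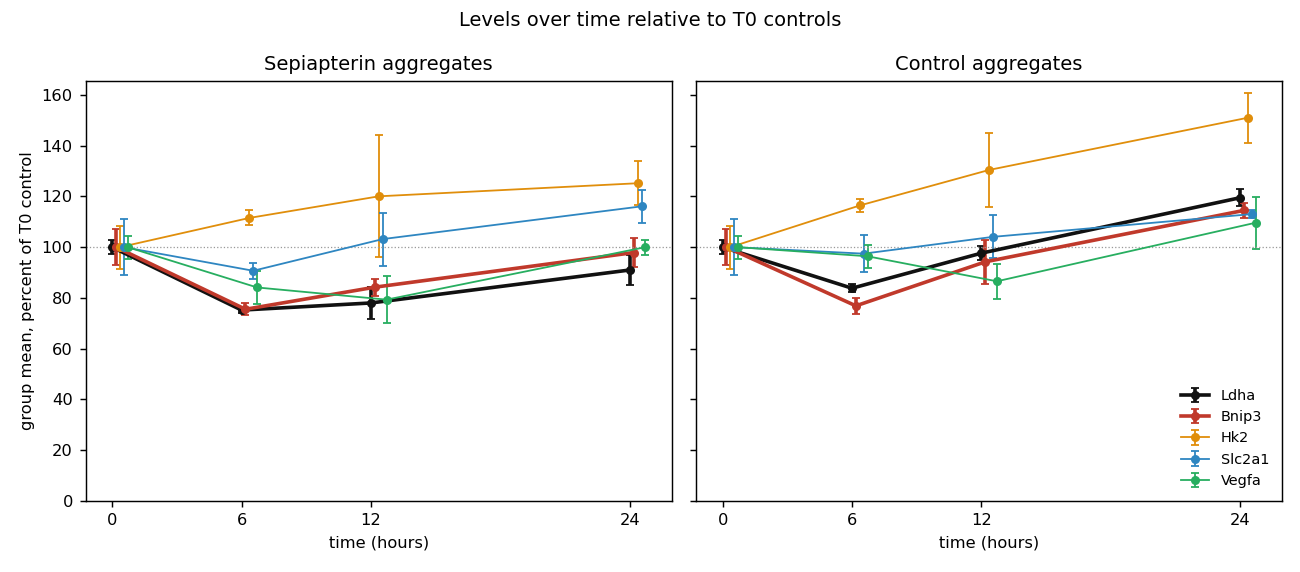
Group means of 5 of the genes as a percentage of their T0 control mean over time, with SD of the 3 libraries, for sepiapterin aggregates (left) and control aggregates (right). Both panels start from the same T0 controls, and the Gapdh row and Adm are left out for their low reads. Ldha is at 75.2, 78.0 and 91.0% with sepiapterin and at 83.8, 97.7 and 119.5% in controls at 6, 12 and 24 hours.

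Relative to T0 controls, Ldha was at 75.2 ± 1.20, 78.0 ± 6.43 and 91.0 ± 5.82% with sepiapterin at 6, 12 and 24 hours. In controls it was at 83.8 ± 1.67, 97.7 ± 2.68 and 119.5 ± 3.44% at the same times. Bnip3 was at 75.5, 84.2 and 97.9% with sepiapterin and at 76.9, 94.2 and 114.5% in controls. Both thus had their lowest mean at 6 hours and their highest later mean at 24 hours in each arm, with T24 in another library batch than T6 and T12. Vegfa had its lowest mean at 12 hours in both arms, at 79.3% with sepiapterin and 86.6% in controls.

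Likeness to Ldha was measured as Pearson's r over the 7 group means of log2 CPM, which share libraries and scaling and are given as a description. With all 7 groups Bnip3 was the closest within the set at r = 0.93, and 0.797% of the 6398 genes ranked, those whose mean log2 CPM was 5 or more, had a higher r. Vegfa had r = 0.78, Slc2a1 0.63, Hk2 0.55, Adm 0.18 and the Gapdh row -0.33. Without T0 Hk2 was the closest within the set, at r = 0.98 over 6 groups, with Bnip3 at 0.92. The share of genes with a higher r was not worked out for 6 groups. With 7 groups 21.2% of the genes ranked had a higher r than Hk2, whose own level lay below the cut of 5. Either r includes the T12 and T24 groups by which Ldha was chosen. Over all 7 groups the 4 genes most like Ldha were ENSRNOG00000003594, ENSRNOG00000016638, ENSRNOG00000036664 and ENSRNOG00000026616, each at r = 0.98. The third of these had means of 139 CPM with sepiapterin and 167 CPM in controls at T24, and of 121 and 143 CPM at T12. At T24 the first had 128 and 136.6 CPM, the second 718.6 and 789.7 CPM and the fourth 43.7 and 50.2 CPM. A high r does not mean a difference of like size.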

How the data were processed

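RNA of 23 libraries was sequenced from polyadenylated RNA, starting from 500 ng of total RNA. The authors deposited raw read counts per Ensembl gene, 1 table per library, and 5 summary lines in each table were set aside. The submitters' processing notes name cutadapt 1.8, STAR 2.5.2b, HTSeq 0.6.1 and the build Rnor_6.0. No source used here states the strand setting or the annotation release, so overlapping and antisense genes are uncertain.

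Groups follow the sample titles. The members and lists were chosen with earlier results of these data known. Counts were fitted with edgeR 4.0.16 in R 4.3.3 (robust quasi-likelihood, TMM scaling, filterByExpr with a minimum count of 10). A fit of 21 libraries in 7 groups tested 14035 genes and had 14 residual degrees of freedom. T24 and repeat controls were compared in a fit of 8 libraries (13653 genes), with T24 sepiapterin libraries adding to the spread. The repeats were set against the other libraries of samples 10 and 11 in a fit of 4 libraries (13505 genes), with 1 residual degree of freedom. All 7 genes passed the filter in each fit. Levels are TMM-scaled CPM over all 23 libraries, and in the 21-library fit log2 fold changes had a median standard error of 0.08. On data simulated for T6 against T0 over 14035 genes, the fit called 50% of 100 genes changed by 1.25 times and 75% of 100 changed by 1.5 times. Changes of the smaller size can thus be missed. Only these genes were changed there, while 21.6% of all genes were called in the data, so the rates may differ in the data. Only T6 against T0 and the repeats are tested for the 7 genes. The other comparisons use values by which the set was chosen, and are described without a test although tests had been planned. The test of the repeats also uses T12 control libraries that entered the choice of Ldha, so its p-values are not free of that choice. All 7 genes are named in each comparison of a group with another. Differences of the sepiapterin effect between times are given for Ldha, and for Bnip3 between T24 and T12. Those most like Ldha are the 4 with the highest r.

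Alternatives were DESeq2 1.42.0, other scalings, no filter, a threshold of 0.10, only the groups compared, T12 controls by file header or with both libraries summed, each library left out, and Ldha relative to the Gapdh row. A fit with sepiapterin and control libraries paired by title number was added after the data were seen. The lists of pathway genes and cell type markers were written as symbols. The RefSeq table of 47357 genes holds 0 Ensembl identifiers, so they could not be matched and were not analysed here.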

Additional observations from a re-analysis of the deposited data

How the results depend on the processing

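Between sepiapterin and control libraries of one time the title numbers differ by a constant 95, and the labels do not say that this marks a pairing. In a replicate block fit on these 9 pairs, chosen after seeing the data, Ldha was at -0.15, -0.32 and -0.40 at T6, T12 and T24. The deviations of paired libraries from their group means had r of -0.114 to 0.144, over 0.1 in 1 pair, and 3 of the 9 correlated best with their own number, so the libraries were not treated as paired. Other groups share no numbers, apart from the repeats. Between the repeats and the other libraries 0 of the 7 genes were called with no replicate block, 0 with DESeq2, and 3 at a threshold of 0.10, against 1. Leaving out a library there leaves no residual degrees of freedom and was not run. By file header its signs turn by construction, to 0.0263 for Ldha, -0.13 for Slc2a1, 0.0678 for Hk2, -0.42 for the Gapdh row, -0.0474 for Vegfa, -0.0464 for Adm and 0.17 for Bnip3.

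Ldha kept its direction in all alternatives of the sepiapterin comparisons. Without single libraries the difference of its effect between T12 and T6 ranged from -0.24 to -0.12. Those fits gave 0.21 to 0.24 for Ldha at T12 over T6 in controls, -0.0223 to 0.0929 with sepiapterin, and 0.28 to 0.37 for T24 over the T12 repeats, where the lone T12 library is assumed to vary like the T24 groups. For T6 over T0 they gave -0.13 to 0.032 for Slc2a1, -0.24 to 0.0737 for the Gapdh row, -0.0904 to 0.000796 for Vegfa and -0.85 to 0.42 for Adm, none of them called, and Slc2a1 was at 0.000327 with library size as the only scaling. As a ratio to the Gapdh row, whose 48 to 128 reads limit its precision, Ldha differed by -0.67 at T12 and -0.24 at T24 with sepiapterin, by -0.15 for T6 over T0, by 0.43 for T12 over T6 in controls and by -0.0615 for T12 over T6 with sepiapterin. Over all genes, the alternatives called 1644 to 4042 for T6 over T0 and 277 to 3248 between libraries of the same samples, against 3035 and 2527. The cause was not tested.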
